A study of Rattus norvegicus with 10 samples.

Results

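COX1 and COX2, the mitochondrially encoded oxidase subunits, together with Ppargc1a and Chchd10, were followed over 5 groups of transfected A7r5 cells, a smooth muscle line derived from rat aorta. All probe sets whose platform annotation names 1 of these 4 genes and no other were taken, which gave 6 probe sets of 4 genes, out of 31042 probe sets without Affymetrix controls and 14217 genes named in this way: 1 for COX1, 1 for COX2, 3 for Ppargc1a and 1 for Chchd10. The 4 genes were chosen by their measured values on the arrays labelled KD mutant. Their differences that involve those arrays are therefore given as a description, with a standard error (SE) and no test. Each of the 10 arrays measured total RNA of normoxic cells grown to about 50% confluence in medium with 10% serum. The groups differ in the stably transfected construct and hold 2 arrays each. The CD mutant group received BMPR2 with the cytoplasmic tail mutation 2579-2580delT, the KD mutant group BMPR2 with the kinase domain mutation C994T, and the ED mutant group BMPR2 with the extracellular domain mutation T354G. The other two groups received wild-type human BMPR2 or empty vector. The titles of the empty vector samples call them native cells, while their transfection label and description name the empty vector, by which they were grouped. BMPR2 is a receptor for bone morphogenetic proteins that is mutated in heritable pulmonary arterial hypertension. The labels do not say whether a line is a clone or a pool, or that a group's 2 arrays stem from separate cultures. The p-values therefore measure only the spread between the 2 arrays of a group, pooled over all 5 groups, the KD mutant included. That spread may be technical.

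Cytochrome c oxidase, or complex IV, is the last enzyme of the mitochondrial respiratory chain and passes electrons to oxygen. Its catalytic subunits are encoded by mitochondrial DNA: COX1 holds the haem and copper centre at which oxygen is reduced, and COX2 takes electrons from cytochrome c. The other subunits and the assembly factors are encoded in the nucleus. Ppargc1a encodes PGC-1alpha, a transcriptional coactivator that drives mitochondrial biogenesis and oxidative metabolism through partners such as the nuclear respiratory factors and the oestrogen-related receptors. Chchd10 encodes a small protein of the intermembrane space, where it is found with the contact site complex of the inner membrane. In bulk RNA, fewer cells of a type and less RNA per cell cannot be told apart.

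Ppargc1a and Chchd10 are nuclear genes, and their promoters are shown as a description. Whether these sequences bear on the levels reported below was not tested. Ppargc1a lies on chromosome 14, from 63073505 to 63729215, and Chchd10 on chromosome 20, from 12725274 to 12730295, in the rat assembly GRCr8. The RefSeq promoter table for GRCr8 matched 2 of the 4 members. Each window holds 250 bases before and 50 after an annotated transcript start, 5′ to 3′ on the gene's strand. Capitals mark the cAMP response element TGACGTCA in Ppargc1a (chr14:63634058-63634357, plus strand) and GC boxes in Chchd10 (chr20:12727029-12727328, minus strand), which read CCGCCC because the motif GGGCGG lies on the opposite strand.
Ppargc1a: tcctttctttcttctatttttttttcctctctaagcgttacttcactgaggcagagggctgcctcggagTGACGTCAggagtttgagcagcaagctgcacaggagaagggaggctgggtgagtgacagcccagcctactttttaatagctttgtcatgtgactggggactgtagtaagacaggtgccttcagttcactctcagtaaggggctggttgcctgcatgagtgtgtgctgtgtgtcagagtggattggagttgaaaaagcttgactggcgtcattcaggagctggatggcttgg
Chchd10: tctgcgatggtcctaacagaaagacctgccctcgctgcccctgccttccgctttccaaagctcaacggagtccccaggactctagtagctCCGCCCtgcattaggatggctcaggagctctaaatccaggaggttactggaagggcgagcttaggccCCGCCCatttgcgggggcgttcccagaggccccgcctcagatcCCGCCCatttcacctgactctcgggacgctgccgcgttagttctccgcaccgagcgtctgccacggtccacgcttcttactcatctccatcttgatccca

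In all, 6 motifs were searched on both strands of both windows, and their share was taken over all 33469 promoters of the table. The cAMP response element, TGACGTCA, began 181 bases before the start in Ppargc1a and is held by 1.83% of promoters. The GC box, GGGCGG, occurred 3 times in Chchd10, at 160, 93 and 50 bases before the start, and is held by 33.1% of promoters. The TATA box letters TATAAA (14.2% of promoters), the E-box CACGTG (6.42%), the ETS motif CCGGAAG (8.75%) and the ERR motif TCAAGGTCA (0.433%) were not in either window. None of these motifs overlapped another in the 2 windows, and a match describes letters only. GC content was 50.3% in the Ppargc1a window and 60.7% in that of Chchd10, against a median of 51.7% over all promoters. The windows thus shared no motif of the 6.

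The arrays labelled KD mutant stood apart before any member was considered. Pearson's r over all probe sets was 0.992 for the KD mutant pair, 0.709 to 0.719 for a KD mutant array with any of the 8 others, and 0.992 to 0.996 within those 8. Their medians were 4.94 and 4.95 on the log2 scale, and those of the other 8 ran from 5.31 to 5.35. Spiked poly-A controls averaged 6.22 and 6.76 on the KD mutant arrays against 7.04 to 8.04 on the others, and hybridization controls 10.41 and 10.47 against 11.16 to 11.35. The probe sets for the 3′ and 5′ ends of Gapdh differed little: 13.38 to 13.56 and 13.26 to 13.33 on the KD mutant arrays, against 13.46 to 13.65 and 13.10 to 13.26 on the others. The middle Gapdh probe set read 13.15 to 13.28 against 13.65 to 13.83. The hexokinase control read 4.37 to 4.67 against 6.48 to 6.93 at its 3′ end, and the beta-actin control 14.21 to 14.24 against 14.06 to 14.20. Summed over 12 vascular smooth muscle markers, the log2 level was 13.30 to 13.43 on the KD mutant arrays and 11.59 to 11.82 on the others, with 10 and 8 of the 12 above the filter level. Of the 10 tested, 6 were higher than with wild-type BMPR2 and 2 lower in limma. Means over the KD mutant arrays and over the 8 others were 11.33 and 4.98 for Tagln, 9.38 and 6.26 for Acta2, and 7.86 and 4.39 for Cnn1. Smtn went the other way, with 8.34 and 10.41 in this order, as did Mylk with 7.23 and 7.84, and Myh11 lay at 6.95 and 6.79. Cnn1 was below the filter level on all 8 other arrays, and Myocd and Lmod1 on all 10, while Smtn, Cald1, Mylk, Myh11, Acta2 and Des were above it on all 10. The sum over 8 fibroblast markers was 13.83 to 14.13 against 8.50 to 8.66. Of the 6 tested, 4 were higher than with wild-type BMPR2 and 2 lower in limma. Col1a2 averaged 13.62 against 3.88, while Pdgfra averaged 4.25 against 5.55 and Fbln1 6.48 against 7.52. The sum over 8 epithelial markers was 12.21 to 12.36 against 12.05 to 12.66. Of the 6 tested, 1 was higher than with wild-type BMPR2 and 5 were lower in limma. The higher one was the keratin gene Krt7, which averaged 11.94 against 7.32. Cdh1, which encodes E-cadherin, averaged 5.87 against 9.71, Krt19 5.99 against 9.41 and Krt18 9.31 against 11.47. The part of these differences in the results below was not tested. For the arrays labelled KD mutant, the construct, the cells and any difference in how the arrays were processed cannot be told apart, so each difference below that involves them is one between arrays that carry these labels.

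On the KD mutant arrays COX1 and COX2 were among the brightest probe sets. On the other 8 arrays COX1 lay between percentiles 26.9 and 50.5 of the probe sets, and COX2 between 24.3 and 42.6. COX1 read 14.23 and 14.08 on the KD mutant arrays. It read 5.15 and 5.35 in CD mutant cells, 4.44 and 4.89 in ED mutant cells, 4.74 and 4.34 with wild-type BMPR2 and 5.19 and 4.61 with empty vector. The KD mutant arrays did not overlap any other group, and the other 4 groups overlapped or lay close to each other. How many of all probe sets separate the KD mutant arrays in this way was not counted. Between the KD mutant and wild-type BMPR2, 89.6% of all tested probe sets passed an adjusted p under 0.05 in limma. The members were chosen on these arrays, so their separation there is a description. COX1 ranked 9 and 14 from the brightest of 31042 probe sets on the KD mutant arrays, and between 15367 and 22684 on the other 8. Mitochondrial messages are known to be abundant in most cells. Ranks between probe sets also reflect how strongly each binds its target, so they are not ranks of abundance.

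COX2 read 14.39 and 13.71 on the KD mutant arrays. It read 5.03 and 4.76 in CD mutant cells, 4.37 and 4.32 in ED mutant cells, 4.28 and 4.43 with wild-type BMPR2 and 4.20 and 4.41 with empty vector. It ranked 4 and 37 on the KD mutant arrays and between 17804 and 23514 on the others. The filter kept a probe set that reached log2 4.82, the 40th percentile of all values, on at least 2 of 10 arrays. COX1 reached that level on 4 of the 8 other arrays. COX2 reached it on 1 of them, so it was tested only because it was bright on the KD mutant arrays. All 6 probe sets were tested, among 22502 in all.

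Ppargc1a showed the opposite pattern, and its 3 probe sets agreed. The brightest read 4.24 and 4.03 on the KD mutant arrays. It read 9.46 and 9.40 in CD mutant cells, 9.13 and 9.09 in ED mutant cells, 9.27 and 9.27 with wild-type BMPR2 and 8.84 and 9.35 with empty vector. The KD mutant arrays lay below every other array, and below the filter level. The share of all probe sets that lie lowest there was not counted. The second probe set read 3.87 and 3.65 on the KD mutant arrays, 8.98 and 9.00 in CD mutant cells, 8.63 and 8.51 in ED mutant cells, 8.63 and 8.71 with wild-type BMPR2 and 8.69 and 8.75 with empty vector. The third read 3.53 and 3.60 on the KD mutant arrays, 8.64 and 8.71 in CD mutant cells, 8.34 and 8.31 in ED mutant cells, 8.44 and 8.69 with wild-type BMPR2 and 8.67 and 8.62 with empty vector. No probe set of the coactivator reached the filter level on a KD mutant array, and all 3 did on each of the other 8.

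Chchd10 followed Ppargc1a in direction but stayed above the filter level on all 10 arrays. It read 5.43 and 5.23 on the KD mutant arrays. It read 10.24 and 10.27 in CD mutant cells, 9.95 and 9.98 in ED mutant cells, 10.40 and 10.41 with wild-type BMPR2 and 10.15 and 10.24 with empty vector. Its KD mutant arrays, too, lay below every other array, again without a count over all probe sets. The plot of levels by array shows both directions at once.

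**Figure D1:**
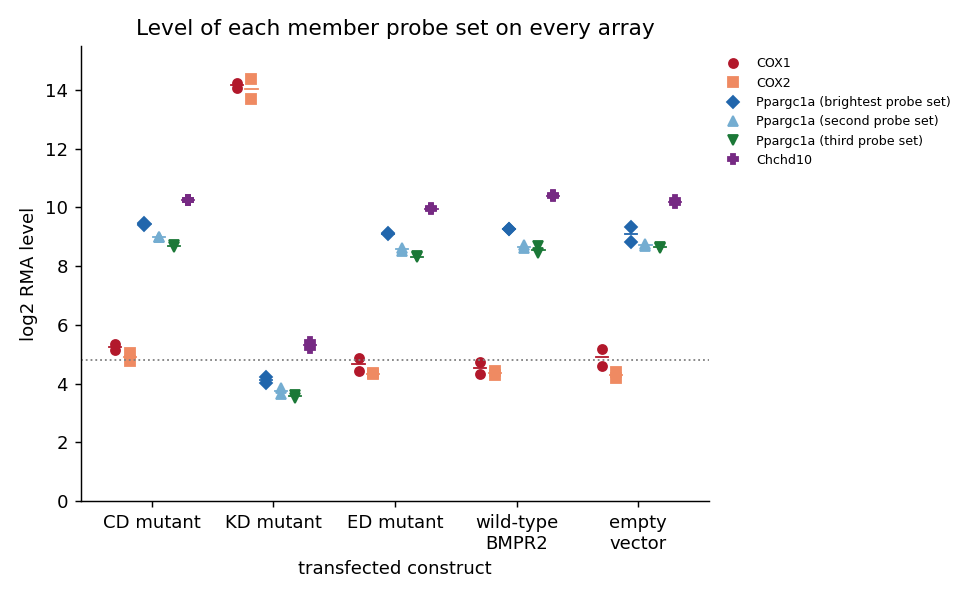
Log2 RMA level of the 6 member probe sets (vertical axis) on each of the 10 arrays, by transfected construct (horizontal axis). Points are arrays, short lines are means of 2, and the dotted line is the filter level, log2 4.82. COX1 and COX2 lie between 13.71 and 14.39 on the KD mutant arrays and at 5.35 or lower elsewhere, while Ppargc1a and Chchd10 lie lowest there.

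As differences from wild-type BMPR2, the KD mutant arrays were 9.62 higher for COX1 (log2, SE 0.206, n = 2 each) and 9.70 higher for COX2 (SE 0.186), or 786-fold and 829-fold on the RMA scale. By size these were the changes ranked 8 and 7 of 22502 probe sets. For Ppargc1a the differences were -5.14 (SE 0.149), -4.91 (SE 0.107) and -5.00 (SE 0.109) by its 3 probe sets, which is 30.1-fold to 35.2-fold lower. For Chchd10 the difference was -5.07 (SE 0.104), 33.6-fold lower. Among falls alone, the brightest Ppargc1a probe set ranked 1, Chchd10 ranked 2, and the other Ppargc1a probe sets 4 and 6. RMA compresses differences at low signal. For COX1, COX2 and Ppargc1a one mean of each pair lay below the filter level, so these folds have no exact size. In this comparison 89.6% of the 22502 probe sets passed an adjusted p under 0.05, 34.5% higher and 55.1% lower on the KD mutant arrays, with a median difference of -0.556. With each array centred on its median, 47% of the passing probe sets were higher, against 38.5% as deposited. The members were chosen on this contrast, so their direction is no evidence of its own.

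The choice of reference moved these values little. Against the other 3 groups, which share the KD mutant arrays with the comparison above, COX1 was higher by 8.90 than in the CD mutant, by 9.49 than in the ED mutant and by 9.26 than with empty vector. COX2 was 9.15, 9.70 and 9.74 higher than in these groups. Chchd10 differed by -4.92, -4.63 and -4.87, and the brightest Ppargc1a probe set by -5.30, -4.97 and -4.96. The smallest COX1 and COX2 differences were thus those against the CD mutant, the group with the highest levels among the 8 other arrays.

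Among the 8 arrays without the KD mutant, none of the members tested passed in any comparison. COX2 was tested only through the KD mutant arrays, so its values there are given without a test. The other 5 probe sets gave 30 comparisons over 6 pairs of groups in the limma fit over all 22502 probe sets. Of these 0 had an adjusted p under 0.05, the lowest being 0.179, and 11 had an unadjusted p under 0.05. Few probe sets of any kind passed there: 0% between the CD mutant and wild-type BMPR2, 0.164% when the ED mutant was set against wild-type BMPR2, 0.0133% between wild-type BMPR2 and empty vector, 0.111% between the CD mutant and empty vector, 0.529% between the ED mutant and empty vector, and 0.351% between the ED and CD mutants. Unadjusted, 784 to 2558 of the 22502 had a p under 0.05 in these comparisons, where 1125 are expected by chance. These 30 values are not independent, since the comparisons share arrays and 3 probe sets share a gene. They also rest on a spread estimate to which the KD mutant arrays contribute. The largest difference of a member here was 0.71. In simulated data the fit recovered 31.3% of changes of 0.5 on the log2 scale, so a change of that size can be missed.

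COX1 and COX2 stood highest in the CD mutant among these 8 arrays. COX1 averaged 5.25 ± 0.144 (SD, n = 2) in the CD mutant, 4.67 ± 0.319 in the ED mutant, 4.54 ± 0.285 with wild-type BMPR2 and 4.90 ± 0.414 with empty vector. Neighbours in the order of these means overlapped, while the CD mutant arrays did not overlap those of wild-type BMPR2 or the ED mutant. The CD mutant exceeded empty vector, with which it overlapped, by 0.35 (SE 0.206, adjusted p = 0.692 in limma). The CD mutant exceeded wild-type BMPR2 by 0.71 (SE 0.206, adjusted p = 1 in limma), the change ranked 4 by size in a comparison in which 784 probe sets had an unadjusted p under 0.05 and 0 passed. COX2 averaged 4.90 ± 0.19 in the CD mutant, 4.35 ± 0.0354 in the ED mutant, 4.35 ± 0.109 with wild-type BMPR2 and 4.31 ± 0.15 with empty vector. Both CD mutant arrays lay above all 6 others, and the remaining groups overlapped. How many probe sets separate the CD mutant from wild-type BMPR2, or from all 6 others, was not counted, so these separations are descriptions. The CD mutant exceeded empty vector by 0.59 (SE 0.186) and wild-type BMPR2 by 0.54 (SE 0.186). Most of these levels lie below the filter level, where a probe set may not measure its transcript.

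By their means, all 3 Ppargc1a probe sets were also highest in the CD mutant among these arrays. The brightest averaged 9.43 ± 0.0434 (SD, n = 2) in the CD mutant, 9.11 ± 0.0256 in the ED mutant, 9.27 ± 0.000665 with wild-type BMPR2 and 9.09 ± 0.363 with empty vector. The 2 empty vector arrays spanned the levels of the ED mutant and of wild-type BMPR2. By the second probe set the ED mutant differed from the CD mutant by -0.42 (SE 0.107, adjusted p = 0.179 in limma, unadjusted p = 0.00227), and by the third by -0.35 (SE 0.109, adjusted p = 0.319). The CD mutant exceeded wild-type BMPR2 by 0.16, 0.32 and 0.11 by the 3 probe sets, with an adjusted p of 1 each.

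Chchd10 was highest with wild-type BMPR2 and lowest in the ED mutant. It averaged 9.96 ± 0.0202 (SD, n = 2) in the ED mutant and 10.40 ± 0.0103 with wild-type BMPR2. Between them lay the CD mutant at 10.26 ± 0.0269 and empty vector at 10.20 ± 0.0632, whose arrays overlapped each other. The ED mutant differed from wild-type BMPR2 by -0.44 (SE 0.104, unadjusted p = 0.00125), and the adjusted p was 0.22 in limma. With an intensity trend and robust variance the same difference passed (adjusted p = 0.0219), in a setting that also raised the number of changed probe sets in this comparison to 142, against 37. Over 12 alternatives the difference ran from -0.46 to -0.43, and that setting was the 1 in which it passed.

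Each of the 6 probe sets was lower in the ED mutant than in the CD mutant, with no overlap between the arrays of the 2 groups. The differences were 0.29 to 0.59 in size on the log2 scale. The 6 are not independent, since all Ppargc1a probe sets measure the same gene. COX2 was tested only through the KD mutant arrays. It averaged 4.35 in the ED mutant and 4.90 in the CD mutant, near or below the filter level. Of all 22502 probe sets, 21.4% had both ED mutant arrays below both CD mutant arrays. That share covers this direction alone, and the reverse order was not counted. For the 5 probe sets other than COX2, adjusted p ran from 0.179 to 0.537 in limma, so none passed, against 0.351% of all probe sets. The largest was that of COX1, at -0.59 (SE 0.206), and the smallest that of Chchd10, at -0.29 (SE 0.104).

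**Figure D2:**
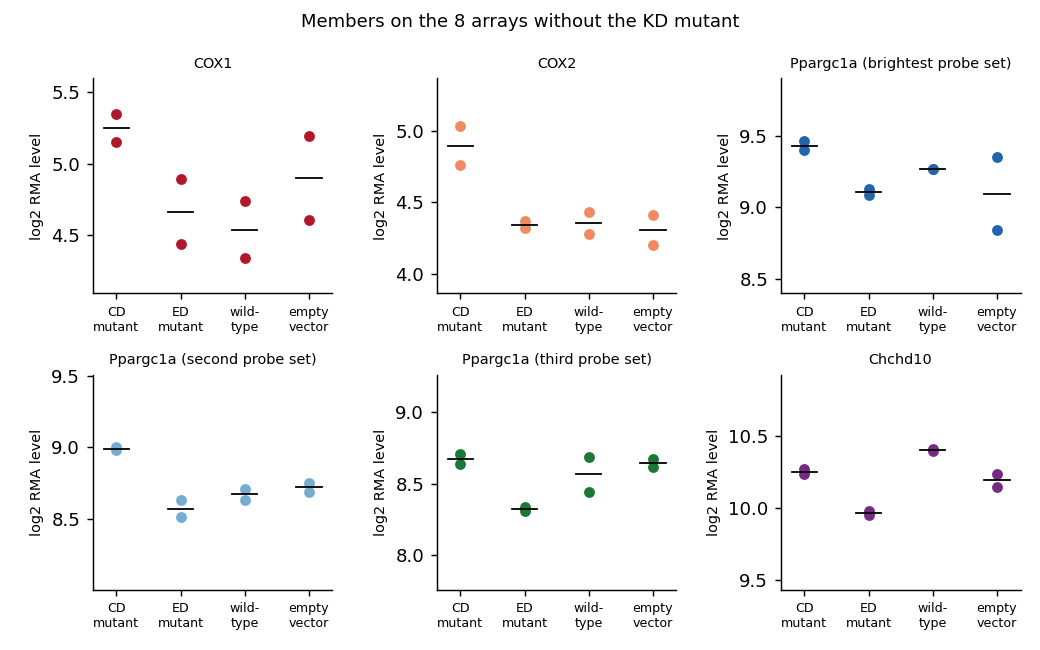
Log2 RMA level (vertical axes, each spanning 1.5 log2 units) of the 6 member probe sets on the 8 arrays without the KD mutant, by construct. Points are arrays and lines are means of 2; the CD mutant arrays lie above the ED mutant arrays in each panel, and Chchd10 is highest with wild-type BMPR2.

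How the members varied together depended on whether the KD mutant arrays were counted. Over 10 arrays COX1 and COX2 correlated with each other at Pearson's r of 1.00 and with each Ppargc1a probe set at -0.99, values set by the 2 KD mutant arrays. Over the 8 other arrays COX1 and COX2 correlated at 0.43, COX1 with the 3 Ppargc1a probe sets at 0.00, 0.55 and 0.34, and COX2 with them at 0.76, 0.87 and 0.42. The values of -0.99 over 10 arrays were thus not seen over these 8, on 7 of which COX2 lay below the filter level. The Ppargc1a probe sets correlated with each other at 0.29 to 0.73 over the 8. These are descriptions over arrays that form groups of 2 and share their normalization.

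Genes with the most similar profile also differed between both sets of arrays. Over 10 arrays, taking 1 probe set for each of 12036 other genes, 1370 correlated with COX1 and 1397 with COX2 at r above 0.99. The highest were Glt8d1 at 0.9990 for COX1 and Pdia6 at 0.9994 for COX2. Ppargc1a had 677 such genes, led by Tpsab1 at 0.9993, and Chchd10 had 754, led by Mmp23 at 0.9987. Over the 8 other arrays 0 genes passed 0.99 for any member. There Tmc6 led for COX1 at 0.965, Ogg1 for COX2 at 0.989, Tmem86a for Ppargc1a at 0.976 and Efs for Chchd10 at 0.950. Each is the highest of 12036 values over 8 arrays, and the height expected by chance was not computed. COX2 reached the filter level on 1 of these arrays. Of the 5 leading genes of each member, Tpsab1 with Ppargc1a was shared by both rankings.

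Of 13 protein genes of mitochondrial DNA, COX1 and COX2 were those with a probe set naming the gene alone. The nuclear-encoded partners of the members were therefore read from 7 lists, in which 157 other genes were tested, with 1 probe set per gene, the one with the highest mean. The lists were written with earlier results of these data known. On the KD mutant arrays 73 of the 157 were higher than with wild-type BMPR2 and 65 were lower, or 46.5% and 41.4%. Of all 12040 genes represented this way, 36.1% were higher and 52.8% lower. The median difference over all genes was -0.418, and the medians of the lists below are to be read beside it.

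The nuclear-encoded subunits of complex IV split in both directions. Of 14 tested, 10 were higher and 4 lower on the KD mutant arrays, with a median of 0.70, which was 0.44 under quantile normalization and 1.10 with arrays centred on their median. Cox6a1 averaged 12.41 on the KD mutant arrays, 4.41 above wild-type BMPR2 (adjusted p = 8.49e-12 in limma). Cox7a2l, which takes part in joining complexes III and IV, averaged 10.78 and 5.88 on these arrays (4.91 higher, adjusted p = 1.54e-11). Cox6c and Cox7c were 2.05 and 1.52 higher. The lower subunits were Cox5a, Cox6a2, Cox4i2 and Cox8a, which differed by -1.65, -1.26, -1.25 and -0.89. Among assembly and copper delivery factors, 12 of 19 were higher and 5 lower, with a median of 0.88. Under quantile normalization 10 were higher and 8 lower, with a median of 0.28. Cox14, which helps to assemble COX1, averaged 10.06 on the KD mutant arrays and 6.02 with wild-type BMPR2. Cox11, which delivers copper to COX1, averaged 5.83 and 9.18, a difference of -3.35, and its 3 probe sets were all lower. Cox15, an enzyme of haem A synthesis, was 3.73 higher by its brightest probe set and 0.84 lower by another. Coa5 was 2.71 higher.

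Genes that keep and transcribe mitochondrial DNA were split evenly, with 8 of 19 higher and 8 lower. Their median of 0.02 became -0.22 under quantile normalization. Tfam, which packages mitochondrial DNA and starts its transcription, averaged 8.74 on the KD mutant arrays and 5.23 with wild-type BMPR2 (3.51 higher, adjusted p = 6.94e-11 in limma). The transcription termination factor family members Mterf3 and Mterf1 were 4.19 and 2.71 higher, and Tefm, an elongation factor of the mitochondrial polymerase, differed by -1.79. Of the nuclear subunits of complexes I, II, III and V, 22 of 41 were higher and 15 lower. Their median of 0.37 became -0.13 under quantile normalization, with 17 higher and 20 lower. Uqcrc2, Uqcrq and Uqcrh of complex III were 4.81, 3.80 and 3.79 higher, and Atp5f1e of ATP synthase was 4.28 higher. Uqcrc1, also of complex III, differed by -1.07, Ndufv1 of complex I by -1.60 and Atp5me of ATP synthase by -1.06.

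In the lists around PGC-1alpha more genes were lower than higher, as over all genes. Of 25 tested coactivators, partners and regulators besides Ppargc1a, 9 were higher and 15 lower on the KD mutant arrays, near the shares over all genes, with a median of -0.94 that was -0.55 with arrays centred and -0.62 with a gene's probe sets averaged. Ppargc1b, the related coactivator PGC-1beta, averaged 4.57 on the KD mutant arrays and 8.05 with wild-type BMPR2 (difference -3.48, adjusted p = 3.71e-10 in limma). Esrrg, an oestrogen-related receptor, differed by -3.55 and Nrf1, a nuclear respiratory factor, by -2.15, although another Nrf1 probe set was 0.46 higher. Mef2c, a muscle transcription factor that binds the Ppargc1a promoter, was 5.01 higher. Of 23 genes of mitochondria and fatty acid oxidation known to respond to PGC-1alpha, 6 were higher and 13 lower, with a median of -0.66 that was -0.28 with the 60th percentile filter and -0.26 with arrays centred. Hadhb and Hadha, the subunits of the trifunctional protein of beta-oxidation, were 3.49 and 2.21 higher by their brightest probe sets, while another Hadha probe set differed by -0.53. Cs, citrate synthase, differed by -3.02 by its brightest probe set, although another was 0.93 higher, and the uncoupling protein gene Ucp1 differed by -1.76.

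In the family of Chchd10 and the contact site genes, 6 of 16 were higher, 5 lower and 5 did not pass. The median of 0.12 became -0.41 under quantile normalization. Chchd1, a protein of the mitochondrial ribosome, was 3.28 higher. Apoo and Samm50, of the contact site complex and the outer membrane, differed by -1.36 and -1.25, and Clpp, a matrix protease, by -1.28. In the 6 comparisons without the KD mutant, 0 of the 157 genes passed, with a lowest adjusted p of 0.0667 in limma, between the ED and CD mutants, and 2 to 14 genes had an unadjusted p under 0.05.

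**Figure D3:**
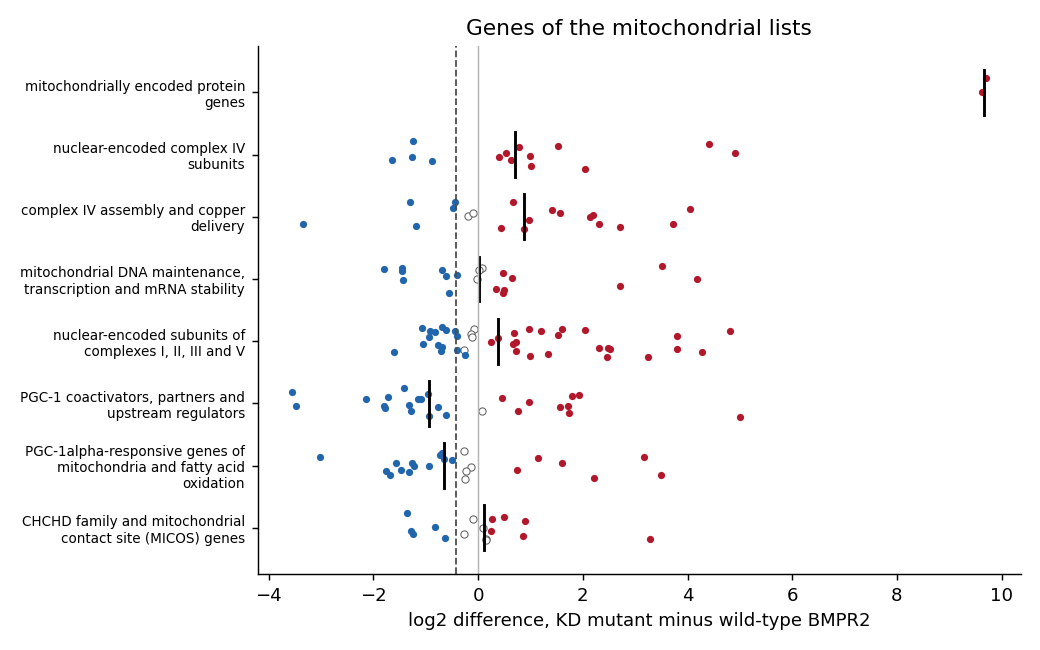
Log2 difference of each tested list gene between the KD mutant and wild-type BMPR2 arrays (horizontal axis), by list (vertical axis). Red and blue points passed an adjusted p under 0.05 as higher and lower, open points did not pass, black bars are list medians and the dashed line is the median of all genes, -0.418; COX1 and COX2 form the top row.

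Different probe sets of 1 gene often disagreed on the KD mutant arrays. Of 3376 genes with several tested probe sets, 1150, or 34.1%, had probe sets that passed in opposite directions against wild-type BMPR2. Among the list genes this held for 14 of 36, or 38.9%. Lrpprc, which stabilises mitochondrial messages, averaged 8.15 on the KD mutant arrays and 3.39 with wild-type BMPR2 by one probe set (4.77 higher), and another differed by -1.45. Prkaa1, a catalytic subunit of AMP-activated kinase, had differences of 3.62 and -1.42. Lrpprc and Prkaa1 were picked once their values were known. The 3 probe sets of Ppargc1a went the same way, from -5.14 to -4.91. Since Ppargc1a was chosen by its values on the KD mutant arrays, this agreement is a description and no independent check. COX1, COX2 and Chchd10 have 1 probe set each and allow no such comparison.

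**Figure D4:**
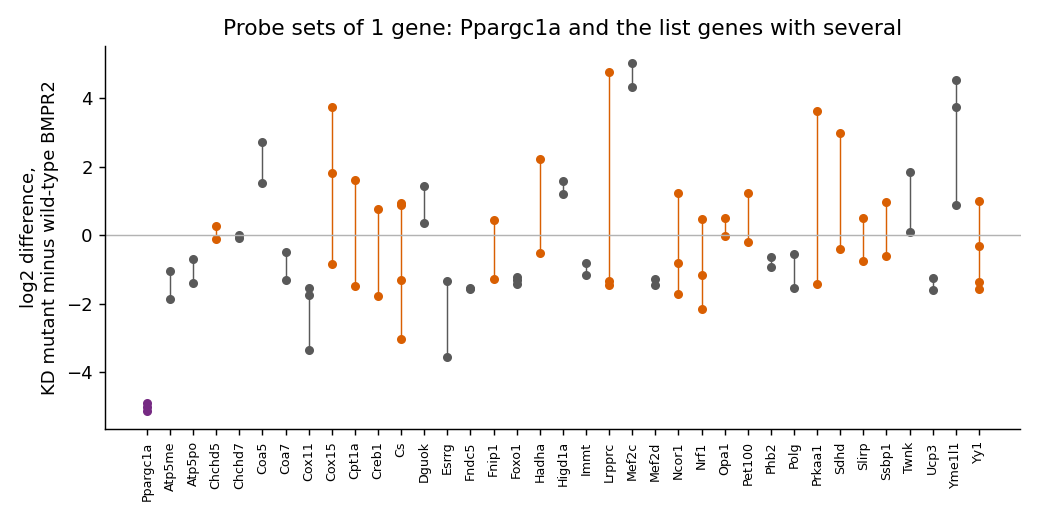
Log2 difference between the KD mutant and wild-type BMPR2 arrays (vertical axis) of each tested probe set of Ppargc1a (purple) and of the list genes with several probe sets (horizontal axis). Orange marks genes with probe sets on both sides of 0; the 3 Ppargc1a probe sets lie together, from -5.14 to -4.91.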

How the data were processed

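Total RNA, labelled with biotin, was read on Affymetrix rat arrays of 1 colour, per the labels' protocols. The values are on the log2 scale as the authors deposited them, and the submitters' processing notes name RMA. Its version is not given in the sources used here, nor is whether the 10 arrays were normalized in 1 run. No detection calls were used, and precision is limited by the number of arrays.

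The table has 31099 probe sets, from which the 57 Affymetrix controls were removed. Platform annotation gave 20826 probe sets with 1 gene, 436 with several and 9780 with none, and 20758 symbols were updated through the RefSeq table of GRCr8. Tests covered probe sets at or above log2 4.82, which is the 40th percentile over the table, on 2 or more arrays. The fit used limma 3.58.1 under R 4.3.3 (5 group means, lmFit, then eBayes; 5 residual degrees of freedom, 11.4 after moderation). Adjusted p-values are two-sided and Benjamini-Hochberg adjusted over all 22502 tested probe sets of a comparison. A marker sum is the log2 of the summed linear levels. The model was tested on simulated data, with changes planted between the CD mutant and wild-type BMPR2. It recovered 31.3% of changes of 0.5 on the log2 scale, 83.6% of those of 1 and 100% of those of 2.

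The members and the lists (8 lists, 192 genes) were chosen with earlier results of these data known. Named list genes are up to 4 per list with the lowest adjusted p between the KD mutant and wild-type BMPR2. The lower complex IV subunits, Uqcrc1, Ndufv1 and Atp5me were added to show falls in lists where those genes had all risen. Genes of similar profile are the 5 with the highest correlation, of which the first is named. Sequences of COX1 and COX2 were not used here. Labels number the 2 arrays of each group: deviations from group means correlated at -0.0287 to 0.143 between same-numbered arrays, with 1 of 10 pairs of groups above 0.1, so the numbers were not treated as pairing samples. Alternatives covered the filter, scaling, variance model, replicate block, arrays fitted, threshold, probe set choice and leaving out each array.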

Additional observations from a re-analysis of the deposited data

How the results depend on the processing

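The members' differences between the KD mutant and wild-type BMPR2 kept their direction under every alternative run. With arrays centred on their median, COX1 and COX2 were 10.01 and 10.09 higher, the Ppargc1a probe sets differed by -4.74, -4.52 and -4.60, and Chchd10 by -4.67. Quantile normalization gave -4.79, -4.59 and -4.69 for the 3 Ppargc1a probe sets. On the deposited scale, taking either of the other probe sets in place of the brightest gave -4.91 and -5.00. Of 360 recomputed values of the 30 comparisons without the KD mutant of the members other than COX2, 350 kept their direction and side of the threshold, 9 changed sign, and 1 newly passed: Chchd10 in the ED mutant less wild-type BMPR2, at -0.44 with trend and robust variance (adjusted p = 0.0219). COX2 in that comparison became 0.01 with centring. With COX2 included, as values with no test, sign changes when 1 array was left out fell in differences of at most 0.23 in size. COX1 ran from -0.10 to 0.35 and COX2 from -0.09 to 0.07 for the ED mutant less wild-type BMPR2. Between the ED mutant and empty vector COX1 ran from -0.53 to 0.06, COX2 from -0.07 to 0.14 and the brightest Ppargc1a probe set from -0.24 to 0.27. Between wild-type BMPR2 and empty vector COX2 ran from -0.06 to 0.15, and the brightest and dimmest Ppargc1a probe sets from -0.08 to 0.44 and from -0.20 to 0.05. The dimmest ran from -0.02 to 0.24 between the CD mutant and wild-type BMPR2, and from 0.00 to 0.07 between the CD mutant and empty vector. The cause of these changes was not tested.

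List medians changed sign for the CHCHD and contact site genes (0.00 with a 60th percentile filter, -0.41 with quantile normalization), for mitochondrial DNA maintenance (-0.22 with quantile normalization, and -0.08 to 0.11 when 1 array was left out) and for complexes I, II, III and V (-0.13 with quantile normalization). Medians that moved by over 1.5 times without a change of sign stand beside their lists above, apart from 0.41 with centring for mitochondrial DNA maintenance, 0.51 with centring for the CHCHD list, and 0.77 with centring and 0.66 over the mean of all probe sets for complexes I, II, III and V. Lower assembly factors numbered 8 with quantile normalization and 3 with centring. For the CHCHD list 11 were lower with quantile normalization and 10 higher with centring, and 5 maintenance genes were lower with centring.

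Counts of changed probe sets without the KD mutant arrays depended most on the setting. They are given for the ED mutant against wild-type BMPR2, wild-type BMPR2 against empty vector, the CD mutant against empty vector, the ED mutant against empty vector, and the ED mutant against the CD mutant, which had 37, 3, 25, 119 and 79. Trend and robust variance gave 142, 68, 144, 493 and 287, and only the arrays compared gave 0, 1, 1, 63 and 38. An adjusted p under 0.01 gave 0, 1, 3, 36 and 37. Leaving out 1 array gave 0 to 1, 1, 1, 19 to 37 and 12 to 31. Without the KD mutant arrays in filter and fit, the last 3 had 43, 320 and 145. For the ED mutant against empty vector the 60th percentile filter gave 198 and quantile normalization 180. No filter gave 1 for wild-type BMPR2 and 8 for the CD mutant against empty vector. The replicate block gave 1 and 12 there and changed no call of a member.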
